A study of Mus musculus with 8 samples.

Results

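The small nuclear RNAs (snRNAs) described here are U11, U12, U4atac and U6atac, the RNA components that are found in the minor spliceosome and not in the major one. Their members are all rows of the deposited table whose name begins with U11, U12, U4atac or U6atac followed by a dot, without any level filter. This gave 10 of 964 rows, 3 each of U11, U12 and U6atac and 1 of U4atac. Row names are printed here without the numeric suffix that all of them end in. The libraries were made from GMLPs of mouse bone marrow, progenitors of granulocytes, monocytes and lymphocytes, 4 from WT mice and 4 from iMLL-ENL mice, which carry an inducible transgene for the leukaemia fusion protein MLL-ENL. Cells of both groups, the WT controls included, were sorted and then grown for 3 days with doxycycline (DOX), which turns such transgenes on. The labels give neither the promoter that drives the transgene nor the age of the mice, and they do not say whether each replicate is a mouse of its own. The p-values hence set the group difference against the scatter among these samples, and that scatter may be technical. No row analysed here is a marker gene of GMLPs, so the labelled cell type was not checked against markers.

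Most introns are removed by the major spliceosome, built on U1, U2, U4, U5 and U6. A small class of introns with distinct splice sites, often called U12-type introns, is removed by the minor spliceosome. In it U11 recognises the 5′ splice site and U12 pairs with the branch point, and both enter as a single U11/U12 particle. U4atac pairs with U6atac and holds it inactive until it is released, after which U6atac takes part in catalysis at the 5′ splice site. U5 is shared by both machineries. U6atac and U6 are made by RNA polymerase III, and the other spliceosomal snRNAs by RNA polymerase II. Genes with U12-type introns are few but include many that act in cell cycle, DNA repair and RNA processing, and U6atac is known as a short-lived RNA whose amount can limit minor intron splicing.

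The sequences of the genes Rnu11 and Rnu12 in the GENCODE release M21 annotation (GRCm38) are shown because they carry the stretches through which both RNAs act and because their near copies bear on how the rows can be read. Rnu11 lies on chromosome 4, from 132270080 to 132270213 on the minus strand, and is a single exon of 134 bases that overlaps the lincRNA gene Gm28872 on the opposite strand. Rnu12 lies on chromosome 15, from 83149644 to 83149794 on the plus strand, is a single exon of 151 bases, overlaps no other annotated gene and lies 259 bases from the protein-coding gene Poldip3, which is on the opposite strand. In the first 2 sequences capitals mark, in Rnu11, AAAAAGG at the 5′ end, where U11 pairs with the 5′ splice site, and, in Rnu12, AAGGAA, the bases complementary to the core of the U12-type branch point. Capitals further along both mark AATTTTT, in the site that binds the ring of Sm proteins.
Rnu11: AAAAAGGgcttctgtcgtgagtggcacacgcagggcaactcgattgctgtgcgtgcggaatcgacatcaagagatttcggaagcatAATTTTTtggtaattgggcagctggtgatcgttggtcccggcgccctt
Rnu12: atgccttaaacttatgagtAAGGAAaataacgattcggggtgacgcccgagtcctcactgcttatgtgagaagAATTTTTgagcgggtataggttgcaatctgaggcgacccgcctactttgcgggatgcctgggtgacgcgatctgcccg
The 3 annotated snRNA genes most like Rnu12 follow, with capitals at each base that differs from Rnu12. They are Gm24525 (chr5:7177706-7177856, minus strand), Gm25703 (chr2:129315329-129315479, minus strand) and Gm23502 (chr14:21812711-21812855, plus strand).
Gm24525: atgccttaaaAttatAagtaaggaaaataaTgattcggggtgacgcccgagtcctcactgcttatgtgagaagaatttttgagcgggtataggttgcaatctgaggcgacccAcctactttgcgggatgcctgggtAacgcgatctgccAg
Gm25703: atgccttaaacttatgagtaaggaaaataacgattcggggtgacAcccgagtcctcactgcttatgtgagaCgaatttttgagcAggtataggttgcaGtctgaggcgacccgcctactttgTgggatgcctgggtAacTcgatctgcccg
Gm23502: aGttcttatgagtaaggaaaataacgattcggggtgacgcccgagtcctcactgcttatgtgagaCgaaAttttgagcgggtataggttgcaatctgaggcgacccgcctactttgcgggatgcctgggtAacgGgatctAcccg

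The motifs were searched on both strands, and in Rnu11 and Rnu12 each match lay on the strand printed. Of 1190 annotated snRNA transcripts of 100 to 200 bases, 0.8% held AAAAAGG, 2.6% held AAGGAA and 3.6% held AATTTTT on their own strand, and 1.1%, 4.9% and 7.8% held them on either strand. Aligned end to end, Gm24525 differed from Rnu12 by 6 substituted bases, Gm25703 by 7 and Gm23502 by 6 with 6 gap bases. As a result 88.6% of the 132 windows of 20 bases in Rnu12 occur unchanged in at least 1 of these copies. For Rnu11 the figure was 38.3% of 115 windows over 4 related genes, whose aligned parts were 89.2% to 93.5% identical. A read of 20 bases from U12 could therefore often not be assigned to 1 copy. None of the 10 row names occurs in this annotation (0 of 10), so which gene a row stands for is not stated here, and sums per snRNA are given beside the rows. Sequences of U4atac and U6atac are not shown.

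Values are reads per 1000000 (RPM) of a library total. The table's rows hold 30.0% to 38.4% of it in WT and 26.0% to 29.2% in iMLL-ENL. These shares do not overlap, so a scale built on the sum of the rows differs from the deposited one by group. The values are not divided by length, so levels of different snRNAs are not ranked. From the steps between values a library's scale rests on 5914000 to 9274000 reads, and a floor of 3 reads lay at 0.323 to 0.507 RPM, which covers counting error only. The 10 rows held between 6 reads (U6atac.4 in WT replicate 3) and 1256 reads (U12.3 in iMLL-ENL replicate 4) per library. WT replicate 2 stood apart: its mean correlation with its own group was 0.908, where the remaining WT libraries reached 0.955 to 0.968 and those of iMLL-ENL 0.99 to 0.994. Many values that move with it are given with and without it, and others only with it. The values do not tell whole snRNAs from fragments, and in bulk samples fewer cells of a type and less RNA per cell cannot be told apart.

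On the deposited scale U12 and U4atac were higher in iMLL-ENL cells, while U11 and U6atac did not pass the test. The ratio of group means was 1.71 for U12, 1.82 for U4atac, 1.25 for U11 and 0.671 for U6atac. The groups did not overlap for U12 and U4atac, and did for the other two. RNA families are U-numbered RNAs summed by name, tRNAs by anticodon, and other snoRNAs, scaRNAs, Y RNAs and transcripts with UCSC identifiers by class. For reference, 44.8% of the 67 families differed between the groups, with 26.9% higher and 17.9% lower in iMLL-ENL. The 2 of 4 called higher are to be read against 26.9%, a share over single RNAs and whole classes alike. Groups did not overlap in 47.8% of families, with iMLL-ENL higher in 31.3%. Row by row, 3 of the 10 members were higher and 0 lower in a fit over all 964 rows, against 23.9% and 5.39% of all rows, 29.3% together, and 4, all of them higher, had an unadjusted p under 0.05, as did 45.0% of all rows. Without any 1 library other than WT replicate 2 or 4, 1 of the 10 was called, where 14.4% to 19.2% of all rows were. Without WT replicate 2 the count was 4 of 10, where 57.0% of all rows were called, so the share of members was then below that of all rows. Groups did not overlap for 4 of the 10, of which 3 were higher in iMLL-ENL, against 37.2% and 29.3% of all rows. The median log2 fold change was 0.44 over the 10 members and 0.33 over all rows.

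**Figure D1:**
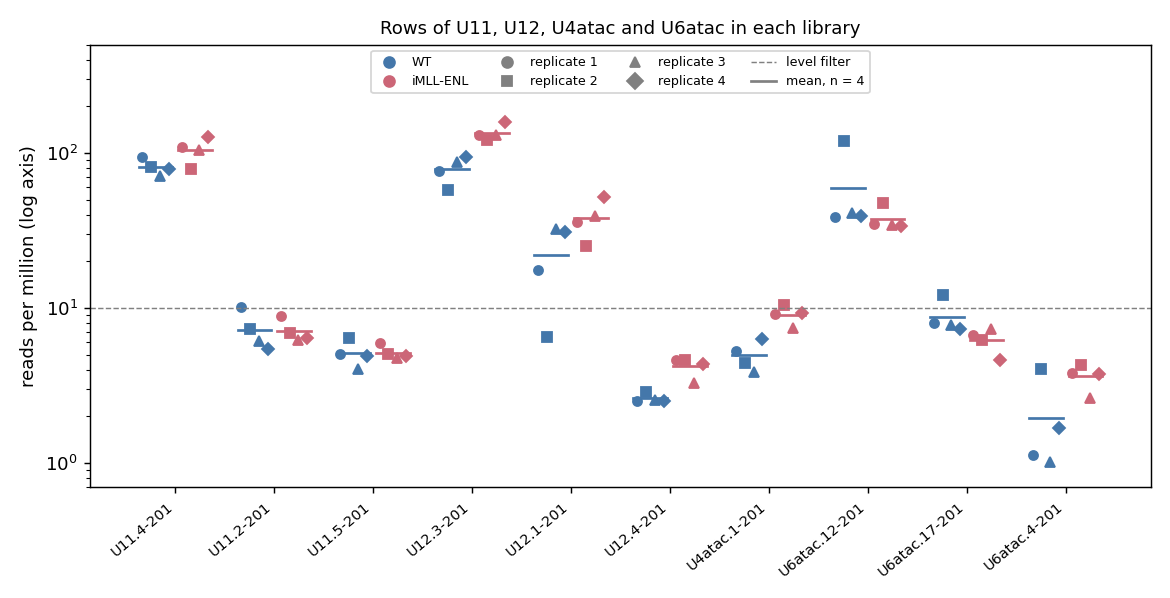
RPM on a log axis for the 10 rows in each of the 8 libraries. Each marker is 1 library, its shape gives the replicate, lines are group means, and the dashed line is the level filter of 10 RPM. U12.3, U12.4 and U4atac.1 lie higher in all iMLL-ENL libraries, and WT replicate 2 stands far above the other WT libraries for U6atac.12.

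U12, the branch point RNA, summed to 96.9, 67.2, 122 and 127 RPM in WT replicates 1 to 4 and to 172, 150, 173 and 214 RPM in iMLL-ENL replicates 1 to 4. Every iMLL-ENL library thus lay above every WT library. The means were 103 ± 28 and 177 ± 27 RPM (SD, n = 4), with a log2 fold change of 0.80 ± 0.21 (SE) on the log2(RPM + 1) scale and an adjusted p of 0.015 (limma with Benjamini-Hochberg adjustment over 67 families). Without WT replicate 2, the lowest WT library, the log2 fold change was 0.61 (adjusted p = 0.00091), in a fit that called 56.7% of families.

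The row U12.3 held most of the U12 reads, 77.6% ± 6.5 in WT and 76.5% ± 2.8 in iMLL-ENL. Its WT levels were 76.7, 57.8, 87.4 and 93.9 RPM and its iMLL-ENL levels 132, 121, 131 and 157 RPM. The groups did not overlap, and the row rose with a log2 fold change of 0.78 ± 0.18 (limma adjusted p = 0.015 over the 633 rows with at least 10 RPM in at least 4 libraries). It was the 1 member called among the 4 that passed this filter, where 28.9% of the 633 were called. Without WT replicate 1 its call ended, at 0.78 with an adjusted p of 0.053. Without WT replicate 2 the log2 fold change was 0.64 (adjusted p = 0.0054), in a fit that called 55.6% of the rows tested.

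U12.1 measured 17.6, 6.49, 32.5 and 31.0 RPM in WT replicates 1 to 4, against 35.7, 25.1, 39.0 and 52.2 RPM in iMLL-ENL. The groups overlapped, and WT replicate 2 was far below the rest of its group. The log2 fold change of 0.94 ± 0.46 did not pass the test (adjusted p = 0.15), and was 0.48 without WT replicate 2 (0.13). U12.1 took 9.66% of the U12 reads in WT replicate 2 and 16.7% to 26.5% in the remaining 7 libraries. Over the 8 libraries its log2 level had a Pearson correlation of 0.886 with that of U12.3 (0.793 without WT replicate 2). This is a description, and whether these rows share reads is not known here.

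U12.4, the lowest U12 row, lay at 2.52, 2.86, 2.54 and 2.52 RPM in the WT libraries and 4.6, 4.64, 3.30 and 4.38 RPM in iMLL-ENL, which is 15 to 43 reads per library. The groups did not overlap. In the fit over all rows its log2 fold change was 0.53 ± 0.17 (adjusted p = 0.044), and 0.17 with a pseudocount of 10 (0.028). The call ended when any 1 library other than WT replicate 2 was left out, with adjusted p up to 0.10, and the value turned to -0.08 after quantile normalization (0.80).

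U11, which reads the 5′ splice site and travels with U12, summed to 109, 94.6, 81.3 and 89.2 RPM in the WT libraries and to 124, 91.3, 116 and 137 RPM in those of iMLL-ENL. The iMLL-ENL libraries were higher except replicate 2, which lay within the WT range. The means were 93.6 ± 11.9 and 117 ± 19 RPM (SD, n = 4), and the log2 fold change of 0.31 ± 0.16 did not pass the test (limma adjusted p = 0.14). It did pass without iMLL-ENL replicate 2 (0.43, adjusted p = 0.047), where 35.8% of families were called. Of the U11 reads, U11.4 held 86.9% ± 1.3 in WT and 89.3% ± 2.2 in iMLL-ENL. That row was at 94.2, 80.9, 71.2 and 78.8 RPM in the WT libraries and 109, 79.4, 105 and 126 RPM in iMLL-ENL (0.35 ± 0.17, adjusted p = 0.14). U11.2 ranged from 5.47 to 10.2 RPM (WT) and from 6.26 to 8.93 RPM (iMLL-ENL). U11.5 ranged from 4.06 to 6.36 and from 4.78 to 5.91 RPM. In these low rows the groups overlapped almost wholly, and their log2 fold changes were -0.004 ± 0.23 and 0.03 ± 0.19 (adjusted p = 0.99 and 0.93 in the fit over all rows).

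**Figure D2:**
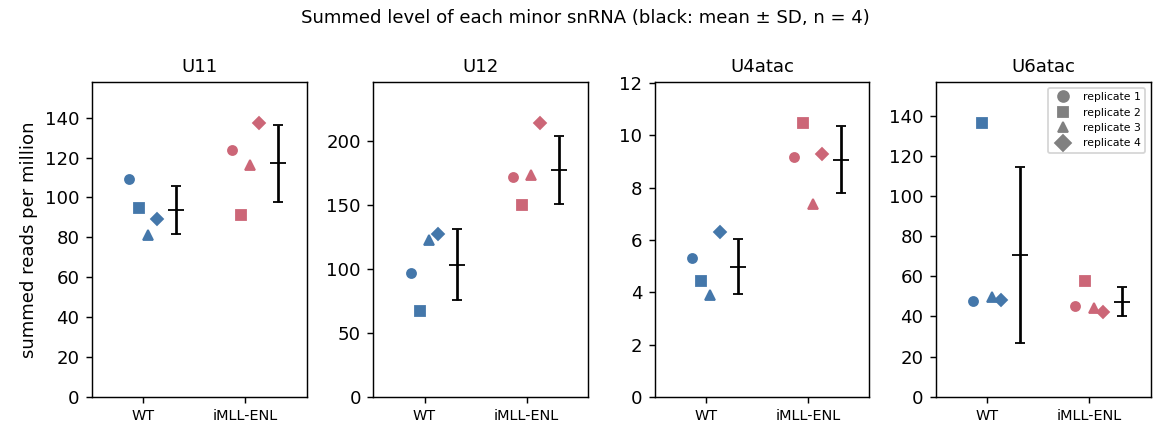
Summed RPM of each minor snRNA in the 4 WT and 4 iMLL-ENL libraries, each panel on its own axis from 0. Markers are libraries and black bars are the mean ± SD. U12 (67.2 to 127 against 150 to 214 RPM) and U4atac (3.89 to 6.31 against 7.39 to 10.5 RPM) do not overlap between the groups, and for U6atac WT replicate 2 at 136 RPM sets the WT spread.

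U4atac, the RNA that pairs with U6atac and holds it inactive, is the single row U4atac.1. It was at 5.32, 4.42, 3.89 and 6.31 RPM in the WT libraries and 9.19, 10.5, 7.39 and 9.27 RPM in iMLL-ENL, resting on 23 to 97 reads per library. All iMLL-ENL libraries were above all WT libraries. From 4.99 ± 1.06 to 9.08 ± 1.27 RPM (SD, n = 4) the log2 fold change was 0.76 ± 0.17 (adjusted p = 0.011 in limma over 67 families). With a pseudocount of 10 in place of 1 it was 0.35 (adjusted p = 0.0076). In the fit over all 964 rows the same values had an adjusted p of 0.029, which rose above 0.05 when any 1 library other than WT replicate 2 or 4 was left out (0.055 to 0.078). Over the families the call held without each library in turn (adjusted p = 0.0039 to 0.037), where 29.9% to 56.7% of families were called.

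U6atac, the RNA that takes part in catalysis, summed to 47.9, 136, 49.9 and 48.1 RPM in the WT libraries and to 45.2, 57.9, 44.0 and 42.2 RPM in those of iMLL-ENL. WT replicate 2 stood far above every other library, and the 3 remaining WT libraries lay close together. The means were 70.5 ± 43.8 and 47.3 ± 7.2 RPM (SD, n = 4), and the log2 fold change of -0.42 ± 0.32 (limma adjusted p = 0.30) was -0.05 without it (0.76). U6, the counterpart of U6atac, was also highest there, at 6627 RPM, while WT replicates 1, 3 and 4 lay between 747 and 1187 RPM and iMLL-ENL between 1671 and 2082 RPM. U5 reached 2218 RPM in that library, and 724 to 1302 RPM in WT replicates 1, 3 and 4. The part of these values in the U6atac result was not tested.

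None of the 3 U6atac rows was called, and their log2 fold changes differed in sign. U6atac.12, with 76.7% to 88.1% of the U6atac reads in every library, was at 38.8, 120, 41.1 and 39.1 RPM in the WT libraries and 34.7, 47.3, 34.1 and 33.8 RPM in iMLL-ENL (-0.49 ± 0.35, adjusted p = 0.31). Within iMLL-ENL replicate 2 was the highest. U6atac.17 was at 7.98, 12.2, 7.78 and 7.29 RPM in the WT libraries and 6.70, 6.25, 7.28 and 4.63 RPM in iMLL-ENL. Its groups were separated by no more than 0.01 RPM, and its log2 fold change was -0.43 ± 0.23 (adjusted p = 0.18 in the fit over all rows). Without WT replicate 2 the log2 fold change was -0.28 (adjusted p = 0.24).

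U6atac.4, the scarcest member, was at 1.12, 4.03, 1.01 and 1.68 RPM in the WT libraries and 3.81, 4.31, 2.62 and 3.76 RPM in iMLL-ENL. WT replicate 2 lay among the iMLL-ENL values, and the log2 fold change of 0.73 ± 0.30 did not pass the test in the fit over all rows (adjusted p = 0.095). Without that library it was 1.02 and passed (adjusted p = 0.00065), in a fit that called 57.0% of all rows. As a share of the U6atac reads U6atac.4 made up 2.34%, 2.96%, 2.02% and 3.49% in WT and 8.43%, 7.44%, 5.95% and 8.91% in iMLL-ENL. These shares did not overlap, and WT replicate 2 lay within the WT range. The share was singled out after its values were seen, so it carries no test, and it rests on 6 to 40 reads of this row per library.

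All of these changes are relative to the scale of the library total, and another scale moved the values of most rows. Of the 633 tested rows 129 were higher and 54 lower on the deposited scale. The split was 60 and 105 with TMM factors, 105 and 66 after median centring and 68 and 56 after quantile normalization. Dividing by the summed RPM of all rows gave 251 and 27, and leaving the 5 most abundant out of that sum 255 and 29. The median over the tested rows was a log2 fold change of 0.31 on the deposited scale, and 0.04, 0.21, 0.16, 0.59 and 0.62 in turn under these alternatives. Measured from that median, U12 stood 0.48 to 0.50 higher under all 6 scalings and U4atac 0.175 to 0.48 higher. U11 was within -0.02 to 0.01 of it, and U6atac lay at -0.845 to -0.72. All scalings but quantile normalization multiply each library by a single factor, which shifts every row and the median nearly alike. These distances could therefore hardly differ among them, and their steadiness there shows nothing about the snRNAs. Quantile normalization could move them, and gave 0.48 for U12, 0.175 for U4atac, -0.02 for U11 and -0.845 for U6atac. U12 lost its call after TMM scaling (0.53, adjusted p = 0.066) and quantile normalization (0.645, 0.079). Its row U12.3 kept its call in the limma fit past the filter (adjusted p = 0.045 and 0.026), where 26.1% and 19.6% of rows were called. After TMM scaling in the fit over all rows U12.3 was not called. U4atac kept its call after TMM scaling (0.52, 0.027), where 32.8% of families were called, and lost it after quantile normalization (0.34, 0.27). In the limma fit over all rows U4atac.1 lost its call after both (adjusted p = 0.078 and 0.37). U11 was called when values were divided by the summed RPM of all rows (0.60, 0.015), also without the 5 most abundant (0.63, 0.018), where 56.7% and 55.2% of families were called.

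**Figure D3:**
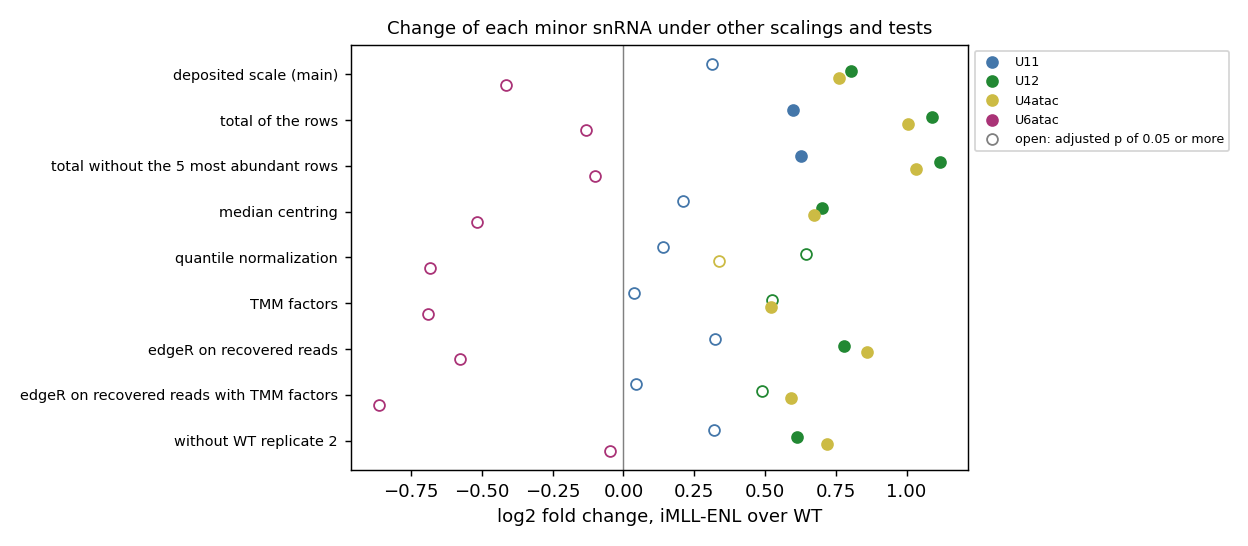
Log2 fold change (iMLL-ENL over WT) of the 4 minor snRNA sums on the deposited scale, under other scalings, in edgeR on reads recovered from the steps and without WT replicate 2. Filled markers have an adjusted p below 0.05 and open markers do not. U12 and U4atac stay above 0 in every line, U11 reaches 0.04 after TMM scaling, and U6atac stays below 0 without a call.

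Ratios within a library do not depend on its scale. Each minor snRNA was set against the major snRNA of the same role, 4 ratios in all, with exact two-sided permutation tests over 70 assignments, whose smallest possible p is 0.0286. U12 stood at 3.58%, 2.43%, 4.01% and 3.66% of U2 in WT and at 3.89%, 3.99%, 4.00% and 3.73% in iMLL-ENL. U2, the branch point RNA of the major spliceosome, was itself called higher (log2 fold change 0.60 ± 0.16, limma adjusted p = 0.016). Apart from WT replicate 2 the values of both groups lay close together, and the log2 ratio differed by 0.21 ± 0.16 (SE, exact p = 0.17, 0.23 after adjustment over 4). Without WT replicate 2 the difference was 0.06, and with the most abundant row of either snRNA 0.03.

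U4atac stood at 13.3%, 12.5%, 9.79% and 13.8% of U4 in WT and at 10.9%, 7.76%, 6.96% and 8.40% in iMLL-ENL. U4, the major counterpart, was called higher (log2 fold change 1.40 ± 0.16, limma adjusted p = 0.00026). The groups overlapped through 1 library of each, and the log2 ratio differed by -0.55 ± 0.18 (exact p = 0.057, adjusted 0.23). U6atac stood at 4.03%, 2.05%, 6.68% and 4.78% of U6 in WT and at 2.70%, 2.78%, 2.19% and 2.39% in iMLL-ENL. WT replicate 2 was below all iMLL-ENL libraries and the other WT libraries were above them (-0.69 ± 0.37, exact p = 0.14, adjusted 0.23). Without WT replicate 2 the difference was -1.01, with an exact p of 0.057, the smallest that 3 against 4 libraries allow. With the most abundant row of either snRNA in place of the sums it was -0.996, with an exact p of 0.029 before adjustment. U11 stood at 0.49% to 1.24% of U1 in WT and 0.35% to 0.92% in iMLL-ENL, with wide overlap (-0.21 ± 0.46, exact p = 0.69, adjusted 0.69). None of the 4 ratios of summed RPM passed the test after adjustment. To pass the adjustment, at least 3 of the 4 would have had to reach the smallest possible p.

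Ratios between partners of 1 particle were added after the values were seen and are given without a test. U12 was at 88.5%, 71.0%, 150% and 143% of U11 in WT and at 139%, 165%, 149% and 156% in iMLL-ENL. WT replicates 1 and 2 were thus low and the other WT libraries overlapped with iMLL-ENL. The log2 ratio differed by 0.49 ± 0.27 (SE), and by 0.29 without WT replicate 2. U4atac was at 11.1%, 3.25%, 7.80% and 13.1% of U6atac in WT and at 20.4%, 18.1%, 16.8% and 22.0% in iMLL-ENL. Here the groups did not overlap. The log2 difference was 1.30 ± 0.46 (SE), and 0.88 without WT replicate 2, where U6atac was high.

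**Figure D4:**
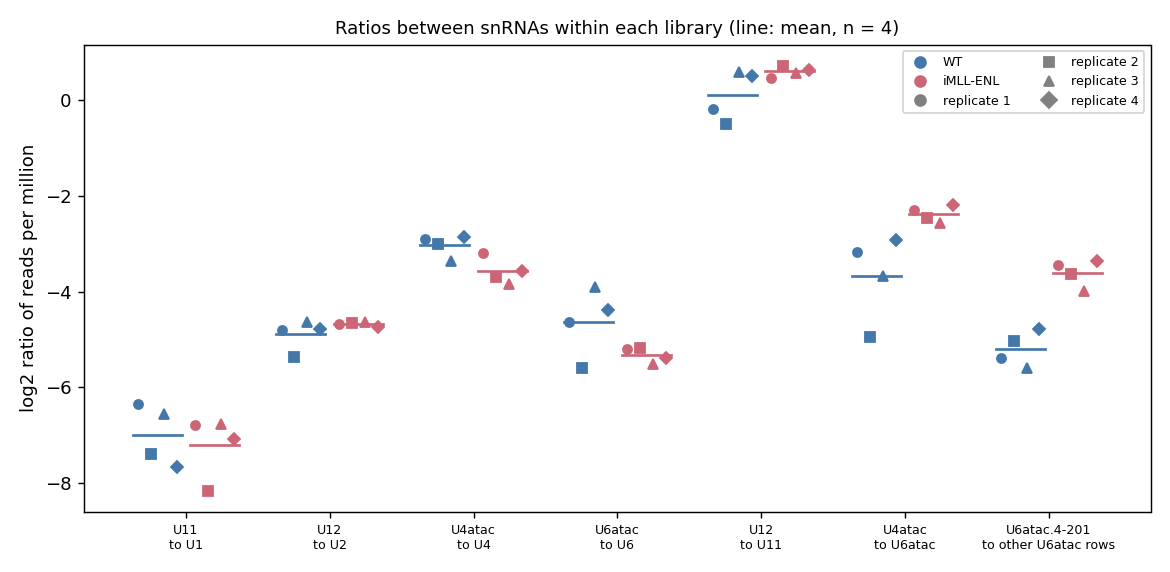
Log2 ratio of RPM between snRNAs in each library, with markers for libraries and lines for group means (n = 4). The first 4 pairs set a minor snRNA against its major counterpart, and the last 3 were added after the values were seen. U4atac to U6atac and U6atac.4 to the other U6atac rows do not overlap between the groups.

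Among the rest of the splicing RNAs, 142 of 279 rows of U1, U2, U4, U5 and U6 passed the level filter. Of these 24 were higher, 0 lower and 118 did not pass the test, beside 20.4% higher and 8.53% lower over all tested rows. By RNA, 4 of 27 tested rows of U1, 12 of 19 of U2, 2 of 2 of U4, 1 of 7 of U5 and 5 of 87 of U6 were higher. U5, which serves both spliceosomes, had means of 1288 ± 665 (WT) and 1664 ± 205 RPM (iMLL-ENL, SD, n = 4), with a log2 fold change of 0.49 ± 0.31 (limma adjusted p = 0.21). The minor snRNA rows together made up 1.81%, 1.08%, 2.06% and 1.13% of the summed RPM of all spliceosomal snRNA rows in WT and 1.59%, 0.91%, 1.61% and 1.44% in iMLL-ENL. These shares overlapped. U7, the snRNA of histone mRNA 3′ end processing, summed to 521 ± 174 and 478 ± 41 RPM (-0.06 ± 0.25, adjusted p = 0.86). The scaRNAs, which guide modification of snRNAs in Cajal bodies, had 3 of 8 tested rows higher and 0 lower.

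Of the 629 tested rows that are no member, those whose log2 level was most like U12 over the 8 libraries were tRNA1326-LeuTAA (Pearson r = 0.99), U2.20 (0.975) and tRNA1003-GlyTCC (0.975). For U4atac they were tRNA2022-AlaTGC (0.956), SNORD11B.1 (0.946) and tRNA1446-AsnGTT (0.945). For U6atac they were tRNA511-AspGTC (0.959), tRNA639-ArgTCT (0.924) and tRNA945-ArgCCG (0.92), and for U11 tRNA640-LeuTAA (0.908), tRNA971-TyrGTA (0.891) and tRNA87-GlnCTG (0.88). The points share library and scale, and each is the highest of many, so these values are a description. The 3 values for U6atac rested on WT replicate 2: over the other 7 libraries they were 0.657, -0.016 and 0.204 in the same order, while the 9 for U11, U12 and U4atac were 0.877 to 0.981. Among the 4 minor snRNA sums, the strongest correlation over 8 libraries was -0.798, for U12 with U6atac, and without WT replicate 2 it was -0.451. U12 with U4atac stood at 0.764 (0.721 without that library), U11 with U4atac at 0.57 (0.545) and U11 with U12 at 0.565 (0.63). U4atac with U6atac stood at -0.436 (-0.006) and U11 with U6atac at -0.383 (-0.749). The correlation of U6atac with U6 was 0.798 with WT replicate 2 and -0.089 without it.

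The authors' deposited table, with its own comparison, called 0 of the 10 rows at an FDR under 0.05, against 16.5% of all rows, and 2 had a p-value under 0.05. The log2 fold changes in the authors' deposited table were above 0 for 5 rows and below for 5. It gave U12.3 at 0.37 (FDR 0.525), U12.1 at 0.38 (0.673), U12.4 at 0.29 (0.737) and U4atac.1 at 0.47 (0.446). In the authors' deposited table U6atac.12 was at -1.08 (FDR 0.0759), U6atac.17 at -0.89 (0.11), U6atac.4 at 0.46 (0.576) and U11.4 at -0.03 (0.976). These values lie below the fits on the deposited scale for each of the rows named. In edgeR on the reads recovered from the steps U12 was at 0.78 (adjusted p = 0.017) and U4atac at 0.86 (0.013), and with TMM factors at 0.49 (0.084) and 0.59 (0.025). These p-values were adjusted over the families. Over all rows edgeR gave U4atac.1 an adjusted p of 0.036, and of 0.086 with TMM factors.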

How the data were processed

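Small RNA libraries of 4 WT and 4 iMLL-ENL samples were made with a QIAseq miRNA kit, per the labels' protocols. The authors deposited 1 table that holds, per the file headers, a column of values for each library and columns of their own comparison: log2 fold change, log2 of mean CPM, p-value and FDR. The headers name no unit for the library columns and the table is called TPM, but the deposited values of a library are whole multiples of 1 step for 99.79% to 100% of rows (within 0.0055 RPM), which leaves no division by length, so they were read as RPM. Reads per step were recovered this way. In 2 libraries the smallest value above 0 was 1 step and in the others 2 to 7 steps. The build was GRCm38, per the submitters' processing notes. Aligner, annotation, use of molecular indices and handling of multiply mapped reads: not given in the sources used here.

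Rows were tested with limma 3.58.1 (R 4.3.3, statmod 1.5.0) on log2(RPM + 1), trended and robust, two-sided, where at least 4 libraries reached 10 RPM. Rows were also summed into 67 families, by RNA name, tRNA anticodon or RNA class, and these were tested without a filter. Benjamini-Hochberg adjustment covered all rows or families tested, at 0.05. Fold changes on this scale understate those of low rows. The 6 members below the filter were tested in a fit over all 964 rows. edgeR 4.0.16 on recovered reads was an alternative, which called 193 of the 633 rows (127 higher, 66 lower). Copies were sought with blastn 2.17.0 against GENCODE M21 snRNA transcripts, at an aligned identity over 90% for Rnu12. Exact tests used Python 3.11.15 with scipy 1.17.1. All members are named, and the most similar rows are the 3 with the highest correlation. Members and lists were chosen with earlier results of these data known. Replicate numbers were not used as pairs.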

Additional observations from a re-analysis of the deposited data

Results flagged for a closer look

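A sample far from the rest of its group of 4 was found in 5 of 40 groups of values, where chance gives about 1 in 20, and the groups are not independent. WT replicate 2 was the highest for the U6atac sum (136.1 RPM, next 49.88), for U6atac.12 (119.9 RPM, next 41.09), for U6atac.17 (12.21 RPM, next 7.98) and for U12.4 (2.86 RPM, next 2.54). For U12.4 these were 22 reads against 18, 15 and 18 in WT replicates 1, 3 and 4. That flag rests on a few reads and on the closeness of the other WT values. Within iMLL-ENL, replicate 2 was the highest for U6atac.12 (47.34 RPM, next 34.66). Without WT replicate 2 the log2 fold change of U6atac.12 was -0.09 in place of -0.49, and that of U12.4 was 0.56 in place of 0.53.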

How the results depend on the processing

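The U12 sum stayed above 0 in all 22 alternatives (0.49 to 1.12) and lost its call after TMM scaling (0.53), quantile normalization (0.645), TMM with row totals as library sizes (0.54, an alternative added after seeing the data) and edgeR with TMM factors (0.49, also added). The U4atac sum lost its call in 1 of 21, quantile normalization (0.34). The same values, tested as the row U4atac.1 in the fit over all rows, lost it in 10 of 21. Among these were TMM scaling (adjusted p = 0.078), TMM with row totals as library sizes (0.075) and edgeR with TMM factors (0.086). The call of U4atac thus depended on the set over which the adjustment ran. Past the filter, the row U12.3 lost its call in 3 of 22 alternatives. These were TMM with row totals (adjusted p = 0.078), edgeR with TMM factors (0.052) and limma without WT replicate 1 (0.053). The U11 sum gained a call when divided by the summed rows (0.598), without the 5 most abundant rows (0.628) and without iMLL-ENL replicate 2; without each library in turn it was at 0.23 to 0.43. The U6atac sum was called in none of 22 (-0.86 to -0.05). The cause of these changes was not tested.

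Each count of members is followed by the percentage of all tested rows called in that fit. Of the 4 members past the filter 1 was called (28.9%), 2 when divided by the summed rows (43.9%), without the 5 most abundant (44.9%), with sample quality weights (72.2%, a fit that stopped before it converged) and with the replicate block (30.5%), 0 with TMM on row totals (25%) and in edgeR with TMM factors (26.5%), and 0 to 1 without each library in turn (0 without WT replicate 1, 9.38%). Over all rows 3 of 10 were called (29.3%), 5 under the 2 scalings to totals (45.6% and 46.3%) and with sample weights (65.5%), 1 after quantile normalization (12.3%), 0 under all 3 TMM settings (20.3% to 22.9%), and 1 to 4 without each library in turn (4 without WT replicate 2, 57.0%, 2 without WT replicate 4, 30.1%, otherwise 1, 14.4% to 19.2%). Where 0 were called, the members with an unadjusted p under 0.05 were 1 (limma with TMM on row totals, and without WT replicate 1) and 2 (edgeR with TMM factors) of the 4, and 3 (limma with either TMM setting) and 4 (edgeR) of the 10.

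U11.2, at -0.004, turned to 0.248 (total of the rows), 0.275 (5 most abundant rows left out) and, without single libraries, -0.11 to 0.15. U11.5, at 0.03, turned to -0.21 (TMM), -0.058 (median centring), -0.40 (quantile), -0.19 (TMM on row totals), -0.255 (edgeR with TMM factors) and, without single libraries, -0.06 to 0.12. U12.4 turned to -0.079 after quantile normalization. The U11 to U1 ratio was at -0.43 to 0.11 without each library in turn. With the most abundant row of either snRNA the U6atac to U6 ratio differed by -0.996 (exact p = 0.029 before adjustment).

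The labels do not say that a replicate number marks a shared mouse or day, so numbers were not taken as pairs. Deviations from the group means correlated at 0.389, 0.286, -0.133 and 0.42 between same-numbered libraries and at -0.441 to 0.292 in the 12 other combinations. WT replicates 1, 2 and 4 each correlated best with the iMLL-ENL library of their own number, and WT replicate 3 did not. With a replicate block the sums kept their side of the threshold (U12 0.80, adjusted p = 0.012, U4atac 0.76, adjusted p = 0.012), U12.1 gained a call (0.94, adjusted p = 0.045) and U12.4 lost it (0.53, 0.068).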
